A study of Drosophila melanogaster with 24 samples.

Results

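The genes described here encode the nuclear-encoded subunits of oxidative phosphorylation in *Drosophila melanogaster*, a list of 58 genes chosen by name: 28 of complex I, 4 of complex II, 7 of complex III, 8 of complex IV and 11 of complex V. All 58 were among the 12024 genes of the deposited RNA-seq table, and all 58 were among the 11314 genes that passed the filter on low values (10 or more in 3 or more libraries). The subunits are encoded on chromosome arms 2L (11 genes), 2R (11), 3L (11) and 3R (12), on the X (11) and on chromosome 4 (2).

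Oxidative phosphorylation takes electrons from NADH through complex I, and from succinate through complex II, to ubiquinone. Complex III passes them to cytochrome c and complex IV to oxygen, and complex V, the ATP synthase, uses the proton gradient built by complexes I, III and IV to make ATP. Most subunits are made in the cytoplasm from nuclear genes, while a small set at the core of complexes I, III, IV and V is encoded in the mitochondrial genome. In the fly, the indirect flight muscles are among the tissues richest in mitochondria.

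All flies were of 1 isogenic strain (w1118iso/Dp(1;Y)y+iso;2iso;3iso), and 20 whole males aged 0–16 h gave the total RNA of a library. F1 flies were reared at 18 °C (F1-18, the cold-treated flies) or 25 °C (F1-25, the control flies), and all F2 flies were reared at 25 °C. Eggs were laid at the rearing temperature of the F1 mothers, so the germline of cold-treated flies includes an exposure of the egg. The F2 groups came from washed eggs of one F1 group placed on food that carried the microbiota of the same or the other F1 group. F2-18-18 took both from cold-treated flies and F2-25-25 took both from control flies. For the crossed groups the sources conflict: by the library names in the paper, F2-18-25 received its microbiome from F1-18 and its germline from F1-25, whereas the sample records give it the germline of F1-18 and the microbiome of F1-25, and the reverse holds for F2-25-18. The crossed groups are therefore called by their library names only, and no result is assigned to either source.

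Of 24 samples, 22 had values. F1-18, F2-18-18 and F2-18-25 had 4 libraries each and F1-25 and F2-25-18 had 3, because replicate 3 of the latter pair was not analysed here. In 7150 genes, including all 58 subunit genes, the values of F2-25-25 replicates 3 and 4 both equalled the mean of replicates 1 and 2 plus a whole number, to within 0.001. These values were left out, so F2-25-25 has n = 2 for every subunit gene. The values are TMM-normalised read numbers per gene and not whole. To estimate depth, low values were mapped back to read numbers around the mean of their group, at an assumed dispersion of 0.02. The scale that best gave whole reads was then taken. In 21 libraries, F2-25-25 replicates 3 and 4 among them, this gave 2148172 to 6950356 reads. There 1 read was worth 0.601 units of the value, in F2-25-25 replicate 4, to 1.80. Of these libraries, 15 came within 0.3% of a library total listed with the study, but only 2 did so under their own name, and 9 did so under another condition, 5 of them F1 libraries. F1-18 replicates 2 and 3 matched totals listed for F1-25 libraries and F1-25 replicate 2 matched one listed for F1-18, while F1-18 replicate 4 and F1-25 replicate 4 matched F2 libraries. F2-25-18 replicates 1 and 4 matched totals listed for F2-25-25. Names are those of the deposited table, every direction given here depends on them, and whether libraries were exchanged was not tested. The study calls the replicates biological replicates, and p-values measure only the spread between them.

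Between genes, levels were compared per kilobase of exon. Complex V held the highest levels, led by ATPsynC, the c-ring subunit of the proton channel, with 9581 units per kilobase as the mean of the 6 group means. The catalytic ATPsynbeta (8382) and blw, the alpha subunit (7750), followed, and the lowest of complex V was ATPsyndelta (370.9), part of the central stalk. In complex III the range ran from UQCR-C1 (2952), a core protein, to UQCR-11 (346.5), a small accessory subunit. In complex IV it ran from levy (2635), the subunit known as COX6A in mammals, to COX7A (502.5). Complex II had the narrowest range, from SdhA (1117), the flavoprotein, to SdhD (823.2), a membrane anchor. Complex I ran from ND-MLRQ (2871), a small subunit whose mammalian counterpart was later found in complex IV, to ND-AGGG (122.5), an accessory subunit of the membrane arm. Exons of ND-15, ND-MLRQ, ND-MWFE, COX6B and ATPsynC overlap another annotated gene on the same strand, so their reads may be shared.

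**Figure D1:**
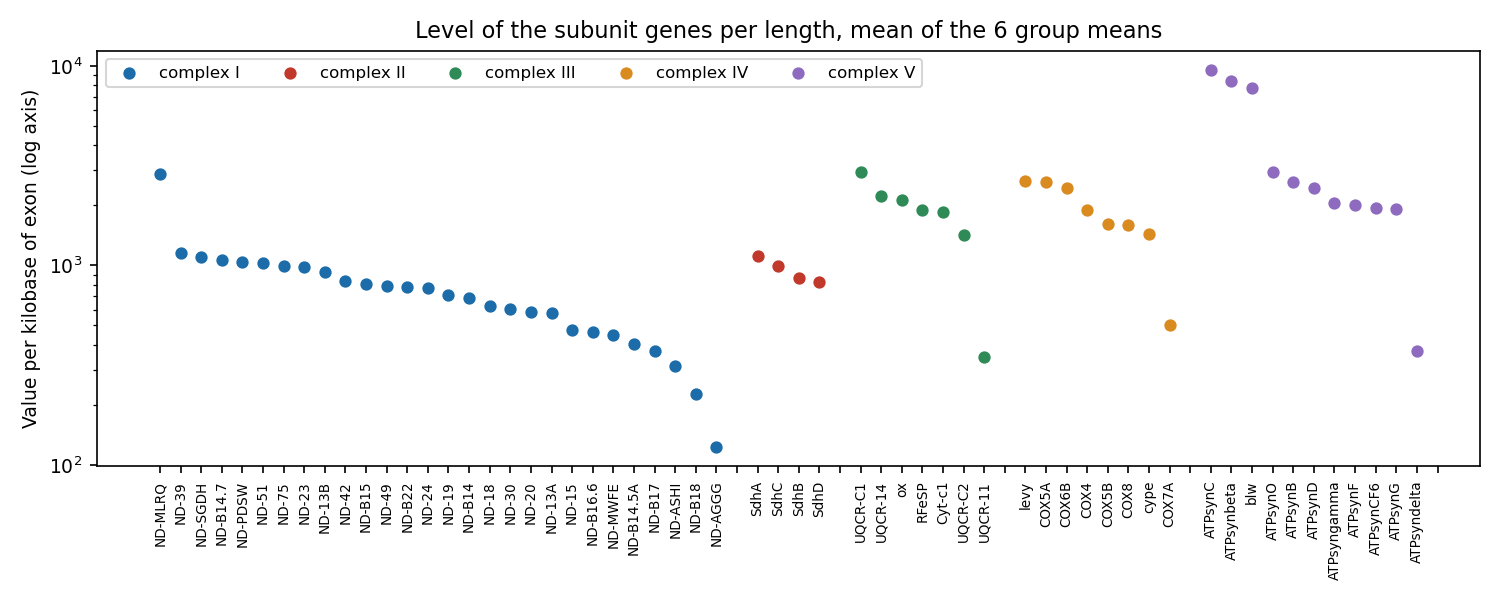
Each point is 1 subunit gene, ordered by level within its complex, with its value per kilobase of exon, averaged over the 6 group means, on a log axis. ATPsynC, ATPsynbeta and blw of complex V stand above all other subunits, from 7750 to 9581, and ND-AGGG is the lowest at 122.5.

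The subunits of all 5 complexes moved together between libraries. Over the 20 libraries without F2-25-25 replicates 3 and 4, the median Pearson correlation of log2(value + 2) between 2 subunit genes was 0.877 over 1653 pairs, against -0.003 between a subunit gene and any other gene tested. With each group's own mean removed the median was 0.887. These correlations are descriptions, and all genes of a library share its RNA, depth and scaling. The least typical members within groups were ND-AGGG, ox, ND-49 and COX7A, whose median correlations with the other subunits were 0.458, 0.545, 0.603 and 0.659. The genes outside the list most like the subunits' mean over the same 20 libraries were FBgn0028336, which the reference tables used here do not name, at r = 0.99, muc (0.979), the acetyltransferase of pyruvate dehydrogenase, ATPsynE (0.978), Pglym78 (0.977), a phosphoglycerate mutase of glycolysis, and sun (0.974). ATPsynE and sun are themselves subunits of the ATP synthase that the list does not hold. Of 11256 other genes tested, 50 had an r above 0.9.

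As one figure per library, the mean deviation of the 58 genes from their mean over 20 libraries, in log2 units, was 0.582, 0.362, 0.297 and 0.083 in F1-18 replicates 1 to 4. In F1-25 it was -0.216 and -0.233 in replicates 1 and 2, and 0.386 in replicate 4. The F1-25 library with the high level thus lay above all F1-18 libraries except replicate 1. The 3 F2-25-18 libraries were at 0.198, 0.212 and 0.328, and F2-25-25 replicates 1 and 2 at -0.275 and -0.346. F2-18-18 was split, with 0.048 and 0.223 in replicates 1 and 2 and -0.374 and -0.302 in replicates 3 and 4. The 4 F2-18-25 libraries were all below the mean, from -0.391 to -0.154. The subunits' share of a library's summed values ran from 2.38% to 4.34%.

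**Figure D2:**
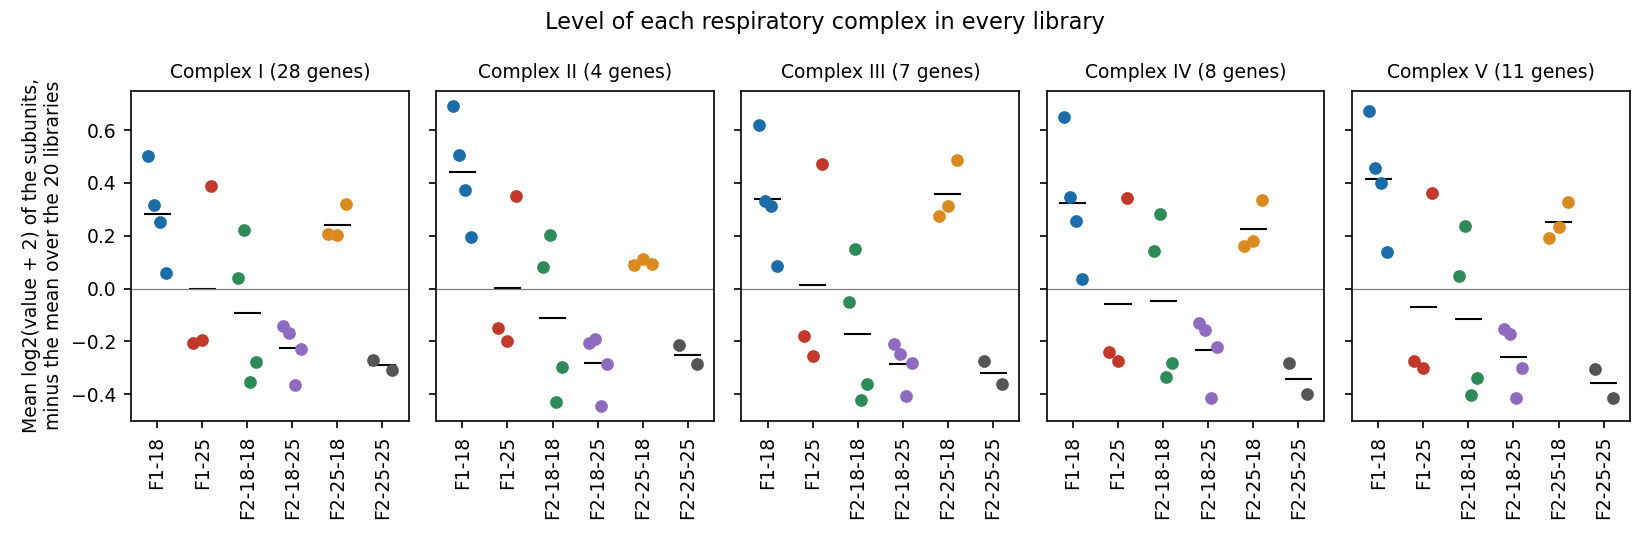
For each complex, points are libraries and bars are group means, and the vertical axis is the mean log2(value + 2) of the complex's genes minus their mean over the 20 libraries. In all 5 complexes the means of F1-18 and F2-25-18 lie above those of the other groups, though single libraries overlap. In complex II, F2-25-18 is at 0.09 to 0.114, below F2-18-18 replicate 2 (0.204). In each complex 1 F1-25 library, replicate 4, lies apart from the other 2.

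The group mean was highest in F1-18 for 44 of the 58 genes, in F2-25-18 for 13 and in F1-25 for 1, COX7A. It was lowest in F2-25-25 for 39 and in F2-18-25 for 19.

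The first comparison asks how subunit expression differed between cold-treated and control F1 flies. Of the 58 genes, 13 were higher in F1-18 and 0 lower at a Benjamini-Hochberg adjusted p under 0.05 (limma, two-sided, adjusted over 11314 genes). In the background of all genes tested, 11% were called higher and 23.5% in either direction, and 22.4% of the subunits were called. At an unadjusted p under 0.05 there were 29 subunits, where 35.4% of all genes passed. The direction was shared more widely than the calls: 57 of 58 fold changes were above 0, with a median log2 fold change of 0.344 against 0.013 for all genes. Only 3 of the 58 genes had F1-18 libraries that all lay above all F1-25 libraries, or 5.17%, where 11.1% of all genes did. By complex, the calls were 3 of 28 in complex I, 3 of 4 in complex II, 0 of 7 in complex III, 2 of 8 in complex IV and 5 of 11 in complex V.

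Complex V had the largest changes. ATPsynD, a subunit of the peripheral stalk (chr3R:19095000-19096271), was at 3608, 3115, 2727 and 2643 in F1-18 replicates 1 to 4 and at 1676, 1575 and 2386 in F1-25 replicates 1, 2 and 4. Its groups did not overlap, and the log2 fold change was 0.70 (SE 0.14, limma adjusted p = 0.00162). ATPsynC (chr3R:31216145-31219630) was at 28850, 25990, 25730 and 22090 in F1-18 and at 13200, 13030 and 23230 in F1-25, a log2 fold change of 0.69 (SE 0.20, limma adjusted p = 0.0152). Here the high F1-25 library lay above the lowest F1-18 library. The catalytic ATPsynbeta was at 28980, 25290, 26600 and 22820 in F1-18 and at 15630, 15910 and 27790 in F1-25, and did not pass (0.44, limma adjusted p = 0.0764). The alpha subunit blw was similar (0.42, limma adjusted p = 0.0633), and the smallest changes of the complex were those of ATPsynB in the peripheral stalk (0.35) and ATPsynG (0.38), neither of which passed.

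In complex II, SdhB, the iron-sulphur subunit (chr2R:6807626-6809172), was at 1871, 1641, 1335 and 1289 in F1-18 and at 877, 866 and 1327 in F1-25, a log2 fold change of 0.60 (SE 0.16, limma adjusted p = 0.0123). SdhC, a membrane anchor, rose by 0.50 (limma adjusted p = 0.0282) and SdhA by 0.40 (limma adjusted p = 0.0398). SdhD did not pass at 0.26 (limma adjusted p = 0.199).

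In complex I, ND-MLRQ (0.61, limma adjusted p = 0.00982), ND-B16.6 (0.59, limma adjusted p = 0.00553) and ND-B14 (0.45, limma adjusted p = 0.0449) rose. ND-B16.6, the counterpart of mammalian GRIM-19, was at 782.6, 749.5, 674.8 and 704.3 in F1-18 and at 402.6, 442.4 and 629.3 in F1-25, without overlap. The core iron-sulphur subunit ND-75 did not pass (0.33, limma adjusted p = 0.166), and the smallest values were those of the accessory subunits ND-13A (0.12) and ND-19 (0.06, limma adjusted p = 0.842). In complex IV, COX6B (0.58, limma adjusted p = 0.0066) and COX5A (0.56, limma adjusted p = 0.0307) rose. The accessory subunit cype, the counterpart of COX6C, had 0.58 with limma adjusted p = 0.0568, and COX4 had 0.31 (limma adjusted p = 0.167). COX7A went against the rest at -0.12 (limma adjusted p = 0.495), with values of 425.3, 386.3, 325.4 and 349.9 in F1-18 and 367, 403.3 and 442.8 in F1-25. In complex III no gene passed, and the values ran from 0.24 for UQCR-14, a small subunit, through 0.26 for ox and 0.35 for the Rieske protein RFeSP to 0.40 for Cyt-c1 and UQCR-C1.

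The size of the F1 result rested on single libraries of both groups. Without F1-25 replicate 4, 43 subunits were called, including all 13 above, and the median was 0.556. Without F1-25 replicate 2 there were 2 calls, without replicate 1 there were 3, and without F1-18 replicates 1, 2 or 4 there were 6, 8 or 26, while the median stayed between 0.241 and 0.556 whichever F1 library was left out. F1-25 replicate 4 was also the recovered library with the fewest low values near whole reads, 71.7%.

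**Figure D3:**
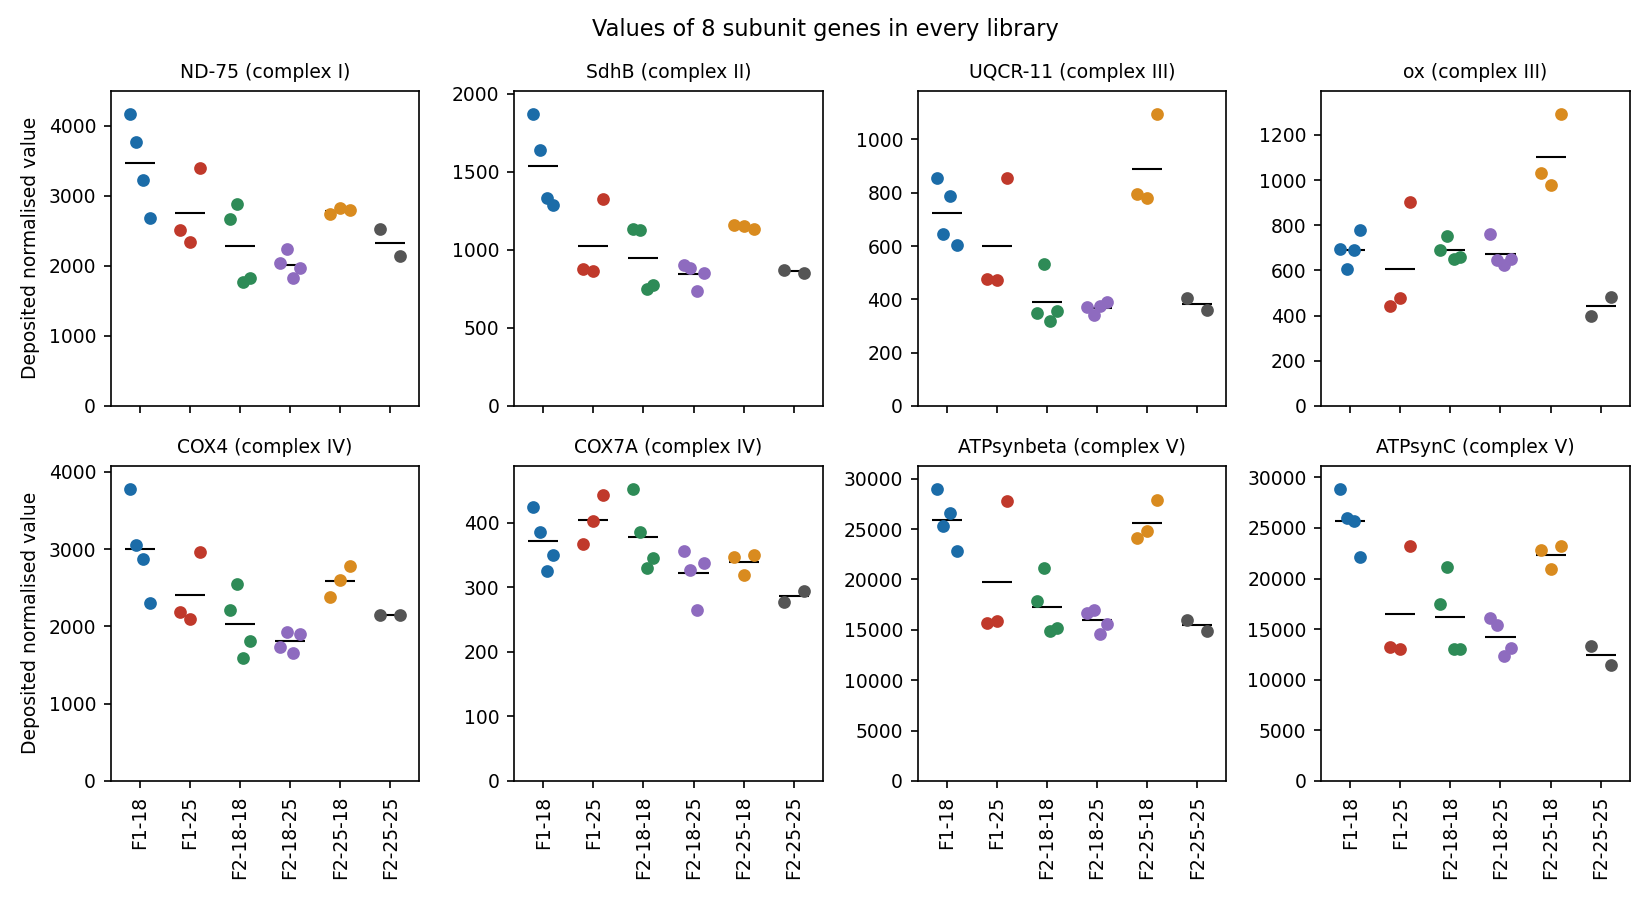
Deposited normalised values of 8 subunit genes by group, with 1 point per library and a bar at the group mean. ATPsynbeta and ATPsynC show F1-25 replicate 4 within or near the F1-18 range, and UQCR-11 and ox are highest in F2-25-18.

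Among the F2 groups, F2-25-18 against F2-25-25 gave the widest difference. These groups differ in 1 source, which was not assigned, and only 2 libraries of F2-25-25 entered for the subunits. Of 58 subunits, 19 were higher in F2-25-18 and 0 lower, where 4.35% of all genes tested were called higher and 7.06% in either direction. At an unadjusted p under 0.05 there were 41, where 24.3% of all genes passed. All 58 fold changes were above 0, with a median of 0.528 against 0.003 for all genes, and in 57 of the 58 genes every F2-25-18 library lay above both F2-25-25 libraries (98.3%). Among the 7150 genes that, like the subunits, had 2 libraries in F2-25-25, 28.4% did so. The calls were 8 of 28 in complex I, 0 of 4 in complex II, 3 of 7 in complex III, 3 of 8 in complex IV and 5 of 11 in complex V.

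The called subunits with the largest changes were ox, UQCR-11, ND-AGGG, ND-15 and UQCR-14. In complex III, ox (chr2R:12757133-12757529), a small accessory subunit, was at 1031, 979 and 1293 in F2-25-18 replicates 1, 2 and 4 and at 397.5 and 483.4 in F2-25-25 replicates 1 and 2, a log2 fold change of 1.31 (SE 0.21, limma adjusted p = 0.00203). UQCR-11 (chr3L:25120709-25126171) was at 795.3, 779.2 and 1096 against 403.4 and 359.2, a log2 fold change of 1.20 (SE 0.23, limma adjusted p = 0.00603). UQCR-14 rose by 0.94 (limma adjusted p = 0.01). In complex I, ND-AGGG was at 153, 118.8 and 156.4 against 56.45 and 64.96, a log2 fold change of 1.20 (SE 0.26, limma adjusted p = 0.0124), and ND-15, an accessory subunit, rose by 0.97 (limma adjusted p = 0.00532).

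Of 7 subunits that the rule fixed by name (ND-75, SdhA, RFeSP, Cyt-c1, COX4, ATPsynbeta and blw), 1 passed. ND-75 was at 2747, 2826 and 2793 in F2-25-18 and 2530 and 2134 in F2-25-25 (0.26, limma adjusted p = 0.459). SdhA had 0.39 (limma adjusted p = 0.153), RFeSP 0.39 (limma adjusted p = 0.22), Cyt-c1 0.58 (limma adjusted p = 0.0819), COX4 0.26 (limma adjusted p = 0.424) and blw 0.33 (limma adjusted p = 0.297). ATPsynbeta passed, at 24110, 24790 and 27890 against 16000 and 14890 (0.73, SE 0.21, limma adjusted p = 0.0412). Other core subunits of complex I, chosen after their values were seen, were ND-23 (0.69, limma adjusted p = 0.0309) and ND-49 (0.66, limma adjusted p = 0.0222), which rose, and ND-20 (0.56, limma adjusted p = 0.0633). The median over the 34 subunit genes with under 1000 bases of exon was 0.544, over the 19 with 1000 to 2000 bases 0.5, and over the 5 longer genes 0.387. Among other genes the medians of the same length classes were 0.089, 0.065 and -0.056. For the other genes with a high mean level they were 0.217, 0.179 and -0.076.

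The calls rested on few libraries: 0 without F2-25-25 replicate 1, 2 without replicate 2, 9 without F2-25-18 replicate 1 and 3 without F2-25-18 replicate 4, with a median of 0.496 to 0.557. With 1 library in F2-25-25, the fit assumes that it varies like the other groups. F2-25-25 replicate 1 was also the library whose values did not give back whole reads.

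**Figure D4:**
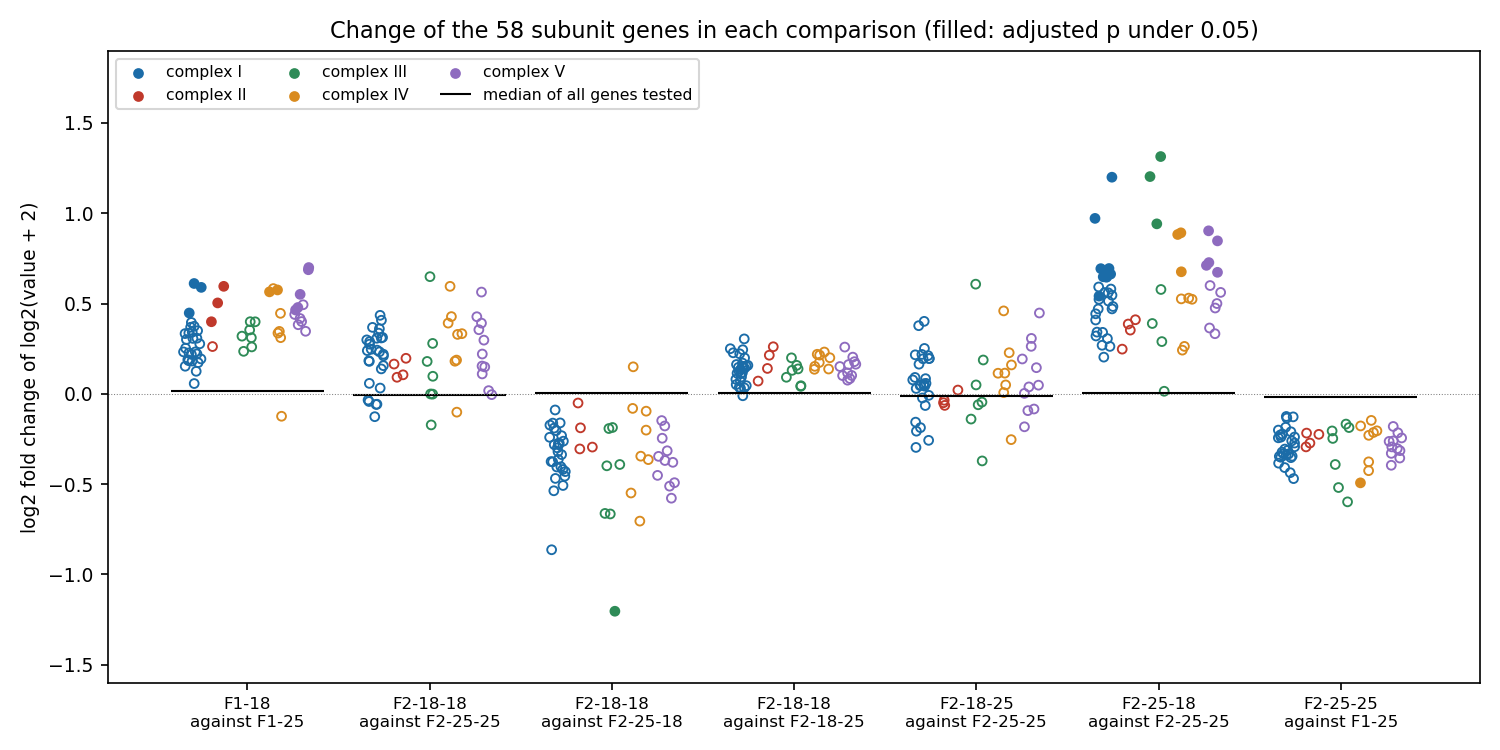
Each circle is the log2 fold change of 1 subunit gene, coloured by complex, in each of 7 comparisons, filled where the limma adjusted p was under 0.05, and black bars mark the median of all genes tested. The 58 subunits lie above their bar in F2-25-18 against F2-25-25, where the highest is ox at 1.31.

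Across the other F2 comparisons, which share these libraries, few subunits passed. In F2-18-18 against F2-25-25, the groups with both sources from 1 temperature, 0 were called at adjusted p under 0.05 by limma, where 2.91% of all genes were called. At an unadjusted p under 0.05 there were 9 of 58, where 17.4% of all genes passed. The median was 0.215 with 48 of 58 above 0, against a median of -0.006 for all genes. In the 3 length classes used above, from short to long, the subunits' medians were 0.277, 0.105 and 0.092. Those of other genes with a high mean level were 0.201, 0.155 and -0.011. The largest difference was that of ox, at 692.1, 754.1, 651.5 and 660.8 in F2-18-18, above both F2-25-25 libraries (0.65, limma adjusted p = 0.0753).

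In F2-18-18 against F2-25-18, 57 of 58 fold changes were below 0, with a median of -0.328 against 0.002 for all genes. By limma, 28 had an unadjusted p under 0.05, where 14.1% of all genes did. After adjustment 1 passed, UQCR-11, where 0.681% of all genes were called and 0.371% called lower. UQCR-11 was at 347.5, 530.9, 317.2 and 357.9 in F2-18-18 and fell by 1.20 on the log2 scale (SE 0.19, limma adjusted p = 0.00708), with no overlap. Without F2-25-18 replicate 4 there were 0 calls, and without F2-18-18 replicate 2 there were 4.

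In F2-18-18 against F2-18-25, 0 of 58 were called by limma where 1.77% of all genes were. Only 1 had an unadjusted p under 0.05, where 14.8% of all genes did. The median was 0.144 against 0.006 for all genes. By length class the subunits' medians were 0.16, 0.138 and 0.102, beside 0.145, 0.09 and -0.02 for other genes with a high mean level. In F2-18-25 against F2-25-25, 0 were called by limma where 0.0619% of all genes were. An unadjusted p under 0.05 was found for 5, where 9.32% of all genes had one. The median was 0.049 against -0.01 for all genes. The interaction of the sources, which does not depend on how the crossed names are read, called 0 subunits and 0.00884% of all genes. Its median over the subunits was -0.371 against 0.008 for all genes. By limma, 17 had an unadjusted p under 0.05, where 8.72% of all genes did.

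The generations were compared in control flies reared at the same temperature. In F2-25-25 against F1-25, 0 of 58 fold changes were above 0, with a median of -0.273 against -0.018 for all genes. COX7A passed, with 277.1 and 295.1 in F2-25-25 and 367, 403.3 and 442.8 in F1-25 (-0.49, limma adjusted p = 0.0403), where 6.59% of all genes were called and 3.82% called lower. At an unadjusted p under 0.05 there were 8 subunits, where 20% of all genes passed. It was no longer called without any 1 of F1-25 replicates 2 and 4 and F2-25-25 replicates 1 and 2. The median was -0.07 without F1-25 replicate 4. Beside these values, 4 of 4 accessory gland markers, 3 of 5 gut markers and 1 of 4 fat body markers were lower in F2-25-25, and their part in the subunit values was not tested.

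By the names of the deposited table, the changes in the F1 and in F2-25-18 against F2-25-25 came from separate libraries. By depth, F1-18 replicate 4 matched a total listed for F2-25-18, and F1-25 replicate 4 one listed for F2-25-25. Both comparisons also share 1 estimate of the spread of each gene, so their calls are not independent. Across the 58 genes, their fold changes had a Spearman correlation of 0.213, a description over genes that are not independent. The genes called in both were 6: ATPsynC, ATPsynCF6, ATPsynD, ATPsyndelta, COX6B and ND-B16.6. This is 46.2% of the 13 F1 calls, where 32.8% of all 58 subunits were called in the F2 comparison. It is 31.6% of the 19 F2 calls, where 22.4% of all 58 were called in F1.

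The subunits encoded by the mitochondrial genome showed the F2 difference with larger size. Of 13 listed genes, 11 were in the table and tested. In F2-25-18 against F2-25-25, 9 of the 11 were higher, where 4.35% of all genes tested were called higher. The median log2 fold change of the 11 was 1.77. The mt:ND1 gene of complex I had the largest, 2.31 (SE 0.25, limma adjusted p = 0.000132), with 4338 to 7052 in F2-25-18 and 940 to 1296 in F2-25-25. Complex III's mt:Cyt-b had 1.89, complex IV's mt:CoI, mt:CoII and mt:CoIII had 1.53, 1.74 and 1.80, and complex V's mt:ATPase6 had 1.86. For mt:ND3, mt:ND4 and mt:ND5 the values were 1.85, 1.76 and 1.72. Those not called were mt:ND2 (1.30) and mt:ND6 (-0.07), the latter near the floor. In F2-18-18 against F2-25-18, 9 of the 11 were lower, where 0.371% of all genes were called lower, and the median was -1.30. In F1, mt:ND2 (1.47), mt:ATPase6 (0.83) and mt:CoIII (0.60) were higher, where 11% of all genes were called higher.

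Other genes of the pathway were described from lists. The TCA cycle supplies the electrons, and its list of 11 measured genes also held Pdha and Pdhb of pyruvate dehydrogenase. In F1-18, 8 of the 11 were higher and 0 lower, where 11% of all genes were called higher. They were led by kdn, the citrate synthase (0.68, limma adjusted p = 0.0024), Idh3a (0.66) and Idh3g (0.61). In F2-25-18 against F2-25-25, 3 of the 11 were higher, where 4.35% of all genes were. Of 11 further nuclear subunits outside the list, 2 rose in F1, ND-ACP (0.41) and UQCR-Q (0.38), or 18.2%, where 11% of all genes were called higher. In F2-25-18 against F2-25-25, 3 rose (27.3%, where 4.35% of all genes were called higher). Of 6 electron and ADP carriers measured, 3 were called in F1, where 23.5% of all genes were called in either direction. The main ADP/ATP carrier sesB rose by 0.73 and Mpcp1, a phosphate carrier, by 0.79. Cyt-c-d, the testis form of cytochrome c, fell by 0.45. Of 70 mitochondrial ribosomal protein genes, 8 rose in F1 and 8 in F2-25-18 against F2-25-25, and 0 fell. This is 11.4% of the list in each, beside 11% and 4.35% of all genes called higher. Of 14 assembly and expression factors measured, 0 were called in F1 and 1, Scox, in F2-25-18 against F2-25-25 (0.68). In limma at an unadjusted p under 0.05 the F1 count was 2, where 35.4% of all genes passed.

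Copies of subunit genes with their own names, of which 19 were tested, went the other way in F1. Of these, 0 were higher and 11 lower in F1-18, where 1420 of 11314 genes tested were called lower. The median of the copies was -0.322, and their largest falls were those of ATPsynCF6L (-0.62), ATPsynGL (-0.59) and ATPsynbetaL (-0.58). Markers of the testis, in which many such copies are expressed, were lower too, 4 of 7 called, and their summed value was 4446 to 5034 in F1-18 and 5488 to 5850 in F1-25. In F2-25-18 against F2-25-25, 3 of the 19 copies and 2 of the 7 testis markers were lower, where 307 of 11314 genes tested were. All 7 markers were below 0. The part of testis content in the values of the copies was not tested.

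The 8 genes used as flight muscle markers were Act88F, fln, TpnC4, Mhc, Mlc2, up, wupA and Act79B. How far each is specific to flight muscle was not tested. Most moved in the direction of the subunits in F1, with 8 above 0, and in F2-25-18 against F2-25-25, with 7 above 0 and 1 below. The exception was Act79B, with means of 24500 in F2-25-18 and 25940 in F2-25-25. In whole flies, fewer cells of a type and less RNA per cell cannot be told apart. Of the 8 markers, 5 were higher in F1-18, led by fln (1.31) and Act88F (1.04), where 11% of all genes were called higher. The summed value of the 8 was 336800 to 420700 in F1-18 and 234400 to 294600 in F1-25. In F2-25-18 against F2-25-25, 4 were higher, with fln at 1.48 and TpnC4 at 1.31, where 4.35% of all genes were called higher. The highest means of the 8 in F2-25-18 were those of Mhc (172400) and Mlc2 (85460). The sum was 363700 to 375300 in F2-25-18 and 270500 to 277100 in F2-25-25. It was 257000 to 353800 in F2-18-18 and 268500 to 309700 in F2-18-25. In F2-25-25 against F1-25 the median of the markers was 0.002, with 4 above 0 and 4 below, beside -0.273 for the subunits. In F2-18-25 against F2-25-25 it was 0.274, beside 0.049. None of the 8 was at 0 in any library.

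With the mean level of these markers as a covariate in the fit, an alternative added after the data had been seen, the direction of the subunits' median turned in these comparisons and in 4 others. The median became -0.36 in F1, with 0 subunits higher and 5 lower, and -0.279 in F2-25-18 against F2-25-25, with 0 called. It became -0.128 in F2-18-18 against F2-25-25, 0.121 in F2-18-18 against F2-25-18, -0.234 in F2-18-25 against F2-25-25 and 0.393 in the interaction. It kept its direction in F2-18-18 against F2-18-25 (0.09) and in F2-25-25 against F1-25 (-0.278), where 15 subunits were then lower. Of the 38 fold changes of subunits named by rule, 28 changed sign, 8 kept their direction and were no longer called, and 2 kept both. The marker level was close to equal in F2-25-25 against F1-25 and in F2-18-18 against F2-18-25 (median 0.028). In the other comparisons it differed with the groups, and muscle content and expression within muscle cannot be told apart.

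**Figure D5:**
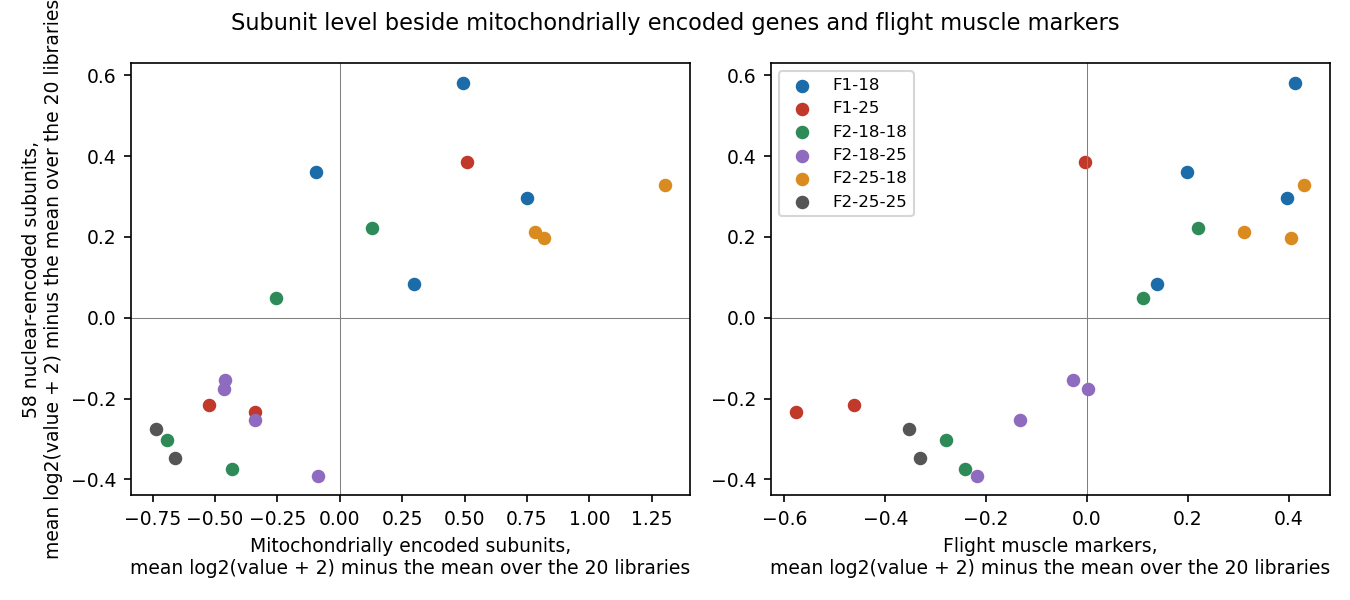
Each point is a library, with the mean of the 58 nuclear-encoded subunits on the vertical axis and that of the mitochondrially encoded subunits (left) or flight muscle markers (right) on the horizontal axis, all as log2(value + 2) minus the mean over 20 libraries. F2-25-18 libraries lie at the upper right in both, and F1-25 replicate 4 has a high subunit level, 0.386, at a marker level of -0.003.

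Markers of other tissues also differed. Fat body markers did not pass in F1. By limma, 0 of 4 had even an unadjusted p under 0.05, where 35.4% of all genes did. Against F2-25-25, 3 of 4 were higher in F2-25-18 and 3 of 4 in F2-18-18, where 492 and 252 of 11314 genes tested were. Their summed values were 56860 to 68460 in F2-25-18, 70560 to 82210 in F2-18-18 and 11100 to 11260 in F2-25-25. The libraries of F2-18-25 spread over both levels, from 7493 to 72180. All 4 accessory gland markers were lower in F1-18, where 1420 of 11314 genes tested were called lower. Their sums were 3766 to 5962 in F1-18 and 8350 to 9431 in F1-25. Of 5 gut markers, 1 was higher and 2 lower in F1-18, and 1 of 2 female yolk genes tested was higher, where 1240 of 11314 genes tested were called higher. In F1-18 and F1-25, the gut markers Vha16-1 (9119, 7217) and Mal-A1 (4169, 3683) had higher means in F1-18. Lower there were Jon65Aiv (304.7, 898.1), Jon25Bi (4.127, 359.5) and Amy-p (427.9, 681.4). How far each is specific to gut was not tested. None of 4 nervous system and 3 eye markers was called in F1 by limma, where 0 and 1 had an unadjusted p under 0.05. At that level 35.4% of all genes passed. In F2-25-18 against F2-25-25, 1 of the 3 eye markers was lower and 0 of the gut, nervous system and yolk genes were called. Of the last 3 lists, 0, 1 and 0 genes had an unadjusted p under 0.05 in limma, where 24.3% of all genes did. Of 11314 genes tested, 307 were called lower there. All 4 nervous system markers were below 0 in this comparison, with no overlap between the groups. Without overlap, 18.95% of all genes tested were lower, some of them with 4 libraries in F2-25-25. The part of these tissues in the subunit values was not tested.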

How the data were processed

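Total RNA of whole males was sequenced as paired-end reads. Per the labels and the study's methods, the authors removed ribosomal reads with SortMeRNA, trimmed with Trimmomatic (version 0.32), aligned with STAR (2.4.0f1) to the fly genome, counted reads per gene with HTSeq (0.6.1) and applied TMM normalisation in edgeR. The deposited values are thus a normalised signal per gene, not whole numbers, so a count test was not used. All 22 mapped columns were used and 2 of the 24 samples were not analysed here.

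Values were tested as log2(value + 2) with limma 3.58.1 in R 4.3.3 (mean-variance trend, two-sided), with 1 mean for each of 6 groups and a spread shared over all libraries. Genes with 10 or more in 3 or more libraries entered. P-values were adjusted over these 11314 genes (Benjamini-Hochberg) and called under 0.05. Fold changes on this scale understate those of low genes. The fit was tested on simulated data. P-values measure the spread between these libraries. No set test was run over the subunits. Coordinates and exon lengths are from the BDGP6 annotation, and 11888 of 12024 identifiers were found in it. No reference sequence was used here.

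The subunits, companion lists and markers were chosen with earlier results of these data known. Named genes follow a rule: the 2 highest and 2 lowest F1 changes in each complex, up to 5 called genes per direction in each comparison, the highest and lowest level per kilobase, 7 subunits fixed by name (ND-75, SdhA, RFeSP, Cyt-c1, COX4, ATPsynbeta and blw), all mitochondrially encoded genes, leading genes of companion lists and the 5 genes most like the subunits' mean. Other genes named were chosen after their values were seen. The whole-number and 0.3% tolerances for depth were set after seeing the values. Alternatives covered pseudocount, filter, scaling, the computed values, the replicate block, the trend, weights, the libraries entered and, added later, the covariate and the libraries of uncertain depth. Figures were drawn in Python (3.11.15) with matplotlib (3.10.9), after calculations with scipy (1.17.1), pandas (2.3.3) and numpy (2.4.6).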

Additional observations from a re-analysis of the deposited data

Results flagged for a closer look

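In groups of 4 libraries, 105 sets of values (means over the subunits, complexes, mitochondrially encoded genes and flight muscle markers, and each named subunit) were examined for a library far from the others, by the ratio of its gap to the group's range. One was found, where chance alone gives about 1 in 20. The value of cype, a complex IV subunit, was 490 in F2-18-25 replicate 3, below the next value of 580.8, with a gap of 0.946 of the range. The other values of this group lay between 580.8 and 586.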

How the results depend on the processing

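The median subunit fold change kept its direction under every scaling, filter, pseudocount, trend, weighting and leave-one-out alternative except in F2-18-25 against F2-25-25, where equal library totals gave -0.001. The number of subunits called was not stable. Leaving out 1 library at a time gave 2 to 43 calls in F1 (median 0.241 to 0.556), 0 to 19 in F2-25-18 against F2-25-25 (0.496 to 0.557), 0 to 2 in F2-18-18 against F2-25-25 (0.093 to 0.305), 0 to 4 in F2-18-18 against F2-25-18 (-0.437 to -0.235), 0 in F2-18-18 against F2-18-25 (0.033 to 0.241), 0 in F2-18-25 against F2-25-25 (0.007 to 0.107), 0 to 2 in F2-25-25 against F1-25 (-0.374 to -0.07) and 0 in the interaction (-0.485 to -0.277). Equal library totals gave 7 calls and a median of 0.186 in F1, and medians of 0.102 in F2-18-18 against F2-25-25, 0.343 in F2-25-18 against F2-25-25 and -0.251 in the interaction, with the median of all genes at -0.14, -0.112, -0.171 and 0.124. Without the trend there were 8 calls in F1 and 0 in F2-25-25 against F1-25. With only the groups compared in the fit, the calls were 2 in F1, 4 in F2-18-18 against F2-25-25, 7 in F2-18-18 against F2-25-18, 1 in F2-18-25 against F2-25-25, 48 in F2-25-18 against F2-25-25, 0 in F2-25-25 against F1-25 and 3 in the interaction. With the values of F2-25-25 replicates 3 and 4 as in the file they were 8, 4, 38, 7 and 2 in F2-18-18 against F2-25-25, F2-18-18 against F2-25-18, F2-25-18 against F2-25-25, F2-25-25 against F1-25 and the interaction. With these replicates left out in every gene, or with a filter at 25, F2-18-18 against F2-25-25 gave 1. Weights per library gave 5 in F2-18-18 against F2-25-18 and 0 in F2-25-25 against F1-25. Without the 3 libraries of uncertain depth (F1-25 replicate 4 and F2-25-25 replicates 1 and 4) the calls were 42 in F1, 5 in F2-18-18 against F2-25-18, 4 in F2-25-18 against F2-25-25 and 0 in F2-25-25 against F1-25. The cause was not tested for any of these.

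Same-numbered libraries of F1 had correlations of -0.286 to 0.103 in their deviations from the group means. In F2-18-18 against F2-18-25 the 4 such pairs had 0.034 to 0.123, with a mean of 0.088 against -0.029 for other pairs. Means in the other comparisons ran from -0.134 to 0.009, and no comparison had all pairs above 0.1. Since few depths matched under their own name, the replicate numbers may not follow the libraries. These values therefore cannot decide whether libraries were paired. With the replicate number as a block the calls were 17 in F1 and 4 in F2-18-18 against F2-25-25.

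ND-19 in F1 changed sign with equal library totals (-0.10) and, with 1 F1 library left out, ran from -0.083 to 0.275, with -0.083, -0.022 and -0.021 without F1-25 replicate 1, F1-18 replicate 1 and F1-25 replicate 2. ND-13A changed sign with equal library totals (-0.033). With the flight muscle covariate the medians were -0.36 (F1, 5 calls, all lower), -0.128 (F2-18-18 against F2-25-25), 0.121 (F2-18-18 against F2-25-18, 0 calls), -0.234 (F2-18-25 against F2-25-25), -0.279 (F2-25-18 against F2-25-25, 0 calls) and 0.393 (the interaction), and 15 subunits were lower in F2-25-25 against F1-25. Named subunits turned as follows in F1: ND-MLRQ -0.10, ND-19 -0.71, ND-13A -0.31, SdhC -0.21, SdhB -0.12, SdhD -0.37, SdhA -0.19, Cyt-c1 -0.36, UQCR-C1 -0.31, UQCR-14 -0.53, ox -0.32, COX6B -0.065, cype -0.41, COX4 -0.35, ATPsynC -0.19, ATPsynB -0.35, ATPsynG -0.48, ND-75 -0.40, RFeSP -0.33, ATPsynbeta -0.29, blw -0.19. In F2-25-18 against F2-25-25 they were ND-75 -0.57, SdhA -0.29, RFeSP -0.39, Cyt-c1 -0.29, COX4 -0.49, ATPsynbeta -0.11, blw -0.36. Where the marker level differs between the groups, its effect and that of the group cannot be told apart. In F2-25-25 against F1-25 the marker median was 0.002.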
